A study of Mus musculus with 10 samples.

Results

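Diplotene spermatocytes (D) are primary spermatocytes at the end of meiotic prophase I. Here they were the cells that the study's annotation names diplotene, together with the 2 pooled gene columns of the same name, 1 for RNA and 1 for accessible chromatin. In scRNA-seq they were 4145 of 45250 cells, in 2 RNA clusters (numbers 9 and 13 of the annotation). In scATAC-seq, 3029 of the 31569 cells that carry an RNA name were named D by their RNA, out of 343866 scATAC-seq cells in all. Nuclei came from whole testes of C57BL/6J mice: wild type (WT) at 11, 17 and 25 days postpartum (dpp), and, at 8 weeks of age, Cre/+ and Nfya-CKO animals. Both groups of adults carry Cre inserted at Stra8, a gene switched on in germ cells before meiosis, and Nfya-CKO mice are in addition homozygous for a floxed Nfya allele, Nfya fl/fl, so that germ cells lose the gene of this NF-Y subunit from that stage on. How many animals a library pooled is not given in the sources used here. Each of the 5 conditions was 1 library per assay, so no test between conditions was possible, cells are not replicates, and intervals cover counting error only. The gene values used here are means over all cells of a name, pooled over libraries, so a gene's level in D was not followed by age or genotype.

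In diplotene, the synaptonemal complex that held the homologous chromosomes together comes apart, the homologs stay joined at crossovers, and the cell gets ready for the first meiotic division. The X and Y chromosomes, silenced in the sex body since pachytene, stay largely silent until after the divisions. Transcripts for the spermatid, such as those of the acrosome, the tail and the protamines, begin to accumulate before the divisions and are in large part stored until they are translated later.

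The label was checked against Ccna1, the germ cell cyclin A1 that acts at the exit from prophase I, and Pou5f2, a POU domain transcription factor of the testis. Values are UMIs (counted transcripts) per 10000, and a level was always compared within 1 gene, between populations. Control populations are here the 11 of 13 RNA columns without CKO in their name. They are pooled over libraries and are not cells of control animals alone, as D includes 4 cells of the Nfya-CKO library. Ccna1 stood at 0.177 in L/Z/eP, 0.301 in mP/lP, 0.436 in D, 0.217 in RS and 0.192 in ES, so D was the highest of the 11 control populations. Pou5f2 stood at 0.210 in L/Z/eP, 0.250 in mP/lP, 0.274 in D, 0.197 in RS and 0.166 in ES. D was again the highest, but only 1.07 times mP/lP (middle and late pachytene), against 1.34 times for Ccna1, with 0.1 added to each value. The study named its clusters from marker genes, so these levels describe the label and are no independent support for it. Over the 11 control populations, the genes whose log2 levels followed Ccna1 most closely among those of at least 0.5 per 10000 in D were Trim69, a ubiquitin ligase (Pearson's r = 0.989), Abca15 (r = 0.989), the serine protease gene Prss21 (r = 0.987), 4931419H13Rik (r = 0.980) and AC129178.1 (r = 0.977). In RefSeq's GRCm38.p6 annotation, 4931419H13Rik spans chr3:55055242-55084002 and Ccna1 chr3:55045469-55057634, which overlap. Whether reads were assigned by strand is not given in the sources used here, so reads of these 2 genes may not be separated. The 5 genes closest to Pou5f2 were Ttc12, Mindy4, Slco6c1, Gm15966 and 4932702P03Rik, with r from 0.917 to 0.928. These are correlations over 11 pooled columns that share libraries, given as a description.

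The sequences below are the RefSeq promoters (build GRCm38.p6, the assembly of the mm10 alignments, 250 bases before to 50 after the start of transcription) of the pair of marker genes and of 3 genes whose RNA was led by D, described further on. Capitals mark matches, on either strand, to 4 motifs: TGACGT (core of the cAMP response element, bound by CREM), CCAAT (bound by NF-Y), GTTGCC (X-box core, bound by RFX factors) and AACGG or AACTG (core of the MYB site). The sites are Ccna1 at chr3:55055006-55055305, minus strand, Pou5f2 at chr13:78024652-78024951, plus strand, Catsperd at chr17:56626797-56627096, plus strand, Efcab8 at chr2:153778996-153779295, plus strand and Ugt1a1 at chr1:88211709-88212008, plus strand. The windows of Ccna1 and Efcab8 lie inside the spans of these genes (chr3:55045469-55057634 and chr2:153773311-153844752), away from the outermost start. The Ccna1 window also holds an edge of the 4931419H13Rik span, at chr3:55055242.
Ccna1: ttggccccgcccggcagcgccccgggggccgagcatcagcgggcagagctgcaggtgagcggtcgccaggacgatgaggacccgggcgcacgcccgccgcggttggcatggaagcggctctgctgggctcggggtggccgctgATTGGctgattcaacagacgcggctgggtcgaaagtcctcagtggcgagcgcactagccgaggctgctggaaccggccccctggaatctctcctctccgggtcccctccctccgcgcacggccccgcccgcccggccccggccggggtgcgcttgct
Pou5f2: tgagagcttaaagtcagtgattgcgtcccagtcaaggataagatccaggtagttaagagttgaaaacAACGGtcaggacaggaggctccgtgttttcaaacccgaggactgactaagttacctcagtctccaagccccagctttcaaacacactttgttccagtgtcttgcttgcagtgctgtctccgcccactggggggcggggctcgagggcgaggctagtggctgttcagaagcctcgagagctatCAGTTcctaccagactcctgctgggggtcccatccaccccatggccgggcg
Catsperd: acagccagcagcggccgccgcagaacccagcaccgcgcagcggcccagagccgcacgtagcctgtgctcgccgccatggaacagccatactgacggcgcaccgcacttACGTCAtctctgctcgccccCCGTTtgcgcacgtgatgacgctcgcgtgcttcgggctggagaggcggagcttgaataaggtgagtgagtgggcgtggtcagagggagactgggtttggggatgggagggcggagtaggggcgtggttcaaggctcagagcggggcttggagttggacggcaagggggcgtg
Efcab8: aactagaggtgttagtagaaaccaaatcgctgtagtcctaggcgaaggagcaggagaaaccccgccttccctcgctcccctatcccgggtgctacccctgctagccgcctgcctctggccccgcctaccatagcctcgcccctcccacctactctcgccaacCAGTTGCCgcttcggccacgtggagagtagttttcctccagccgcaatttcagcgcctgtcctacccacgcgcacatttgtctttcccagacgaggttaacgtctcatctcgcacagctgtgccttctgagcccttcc
Ugt1a1: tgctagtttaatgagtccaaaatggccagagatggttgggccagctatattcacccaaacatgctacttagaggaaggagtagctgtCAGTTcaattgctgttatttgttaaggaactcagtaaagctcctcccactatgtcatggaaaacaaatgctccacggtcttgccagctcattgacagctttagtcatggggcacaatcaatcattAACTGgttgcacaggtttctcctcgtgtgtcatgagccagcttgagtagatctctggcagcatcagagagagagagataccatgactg

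In these windows, Ccna1 held 1 CCAAT match and no other, Pou5f2 held 2 MYB core matches, and this promoter of Catsperd held 1 match to TGACGT and 1 to the MYB core. Efcab8 had a GTTGCC match that overlaps a MYB core match, and Ugt1a1 had 2 MYB core matches. Of the 236 genes with their highest level in D, 178 had 212 promoters in the table, and 8.02% of these held TGACGT, 41.0% CCAAT, 17.9% GTTGCC and 60.4% a MYB core. Over all 32851 promoters the shares were 7.51%, 37.4%, 12.5% and 55.1%. In the 5259 promoters of genes at 0.5 or more in D they were 12.9%, 38.4%, 14.9% and 55.5%. No share among the genes that peaked in D was more than 1.5 times that of either of these sets. A match describes letters in a window and does not show a bound site.

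D cells came almost wholly from the 25 dpp and Cre/+ testes. There were 51 in the 11 dpp library, 98 in the 17 dpp and 1796 in the 25 dpp library, Cre/+ gave 2193 and Nfya-CKO 4, and 3 carried no library name. As a share of its cells, the 11 dpp library held 0.813% (exact Clopper-Pearson 95% interval 0.606 to 1.07%), the 17 dpp library 2.62% (exact Clopper-Pearson 95% interval 2.13 to 3.18%) and the 25 dpp library 9.96% (exact Clopper-Pearson 95% interval 9.52 to 10.4%). In Cre/+ the share was 18.3% (exact Clopper-Pearson 95% interval 17.6 to 19.0%), and in Nfya-CKO 0.0776% (exact Clopper-Pearson 95% interval 0.0212 to 0.199%). These 5 intervals did not overlap, and the share was higher in each older WT library. Among germ cells alone, D made up 1.62% of 3146 cells at 11 dpp (exact Clopper-Pearson 95% interval 1.21 to 2.13%), 3.05% of 3212 at 17 dpp, 10.3% of 17490 at 25 dpp, 18.9% of 11610 in Cre/+ and 0.80% of 500 in Nfya-CKO (exact Clopper-Pearson 95% interval 0.218 to 2.04%), and the intervals of 11 dpp and Nfya-CKO then overlapped. Of the 5152 Nfya-CKO cells, none of the 4 named D had 1000 genes or more, and their median was 582.5 genes. In the textbook timetable of the first wave of spermatogenesis, diplotene cells appear after the age of the youngest library. By the study's account, germ cells had come to early leptotene to zygotene at 11 dpp. At 17 dpp they had come to leptotene to early pachytene, which is also before diplotene. The D cells of the 11 and 17 dpp libraries were in both RNA clusters, with 31 and 65 in cluster 9 and 20 and 33 in cluster 13. Mitochondrial UMIs, a sign of RNA quality, made up a median of 1.42% of UMIs in D cells at 11 dpp and 1.17% at 17 dpp. At 25 dpp the median was 0.552%, and in the Cre/+ library 0.909%.

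**Figure D1:**
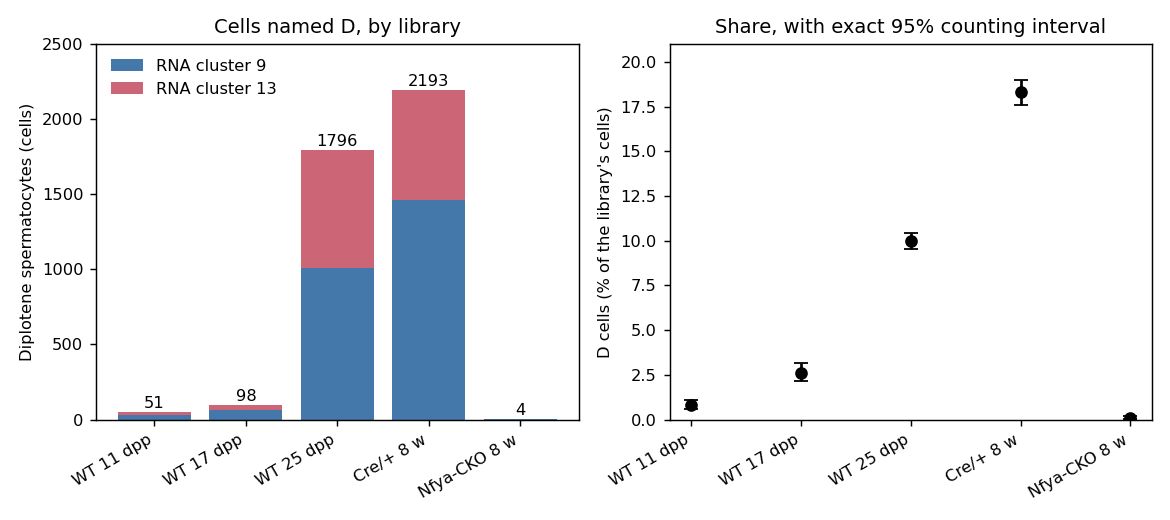
Left, number of cells named D (y axis) in each of the 5 scRNA-seq libraries (x axis), split by RNA cluster. Right, the same cells as a percent of all cells of the library, with bars for the exact 95% counting interval. The 25 dpp and Cre/+ libraries hold 1796 and 2193 D cells, and the other 3 hold 51, 98 and 4.

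Libraries shared cell barcodes. Of the 4142 D cells with a library name, 582, or 14.1%, carried a barcode that occurs in another scRNA-seq library too, against 23.4% of all cells. Of these, 535 were Cre/+ cells, and 534 D cells of Cre/+ shared their barcode with a cell of the Nfya-CKO library. None of the 534 partners was D, all of them bore a population name with CKO in it (somatic cells or undifferentiated spermatogonia), and the D cell was the deeper of the pair in 494 pairs, with a median of 9346 against 907.5 UMIs. D cells of Cre/+ with a shared barcode had a median of 9342 UMIs and those without 2392.5. Without such cells, D made up 20.3% of Cre/+ cells and 0.299% of Nfya-CKO cells. The pooled gene columns could not be recomputed without them, since counts per cell were not used here. In scATAC-seq, 17 of the 3029 D cells shared a barcode with another scATAC-seq library.

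D cells held fewer UMIs than mP/lP cells and more than round spermatids (RS). The median was 6969 UMIs in mP/lP, 3670 in D and 2132 in RS, with 2751, 1726 and 1115 genes. At 25 dpp the UMI medians were 5850, 4431.5 and 2379, and in Cre/+ 13985, 3128 and 2050. D was therefore 0.758 of mP/lP at 25 dpp and 0.224 of it in Cre/+, the same direction with sizes more than 3 times apart. The columns compared below differ in their libraries as well: 25 dpp gave 70.7% of mP/lP, 43.3% of D and 22.9% of RS cells, and Cre/+ gave 27.9%, 52.9% and 77.0%. Stage and library cannot be told apart in the pooled columns.

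D cells had no name of their own in accessible chromatin. The study's scATAC-seq annotation has no diplotene name, and the 3029 D cells were spread over others. The study named its scATAC-seq clusters from the RNA names of their cells and from the accessibility of marker genes. The chromatin names are therefore not independent of the RNA names. Whether D cells gathered in a scATAC-seq cluster that bears another name was not tested. By chromatin, 1325 were mP/lP, 43.7% (exact Clopper-Pearson 95% interval 42.0 to 45.5%), 748 were L/Z/eP (leptotene, zygotene and early pachytene), 24.7% (exact Clopper-Pearson 95% interval 23.2 to 26.3%), 602 were RS, 19.9% (exact Clopper-Pearson 95% interval 18.5 to 21.3%), and 274 were eL/L/Z (early leptotene to zygotene), 9.05% (exact Clopper-Pearson 95% interval 8.05 to 10.1%). The most common chromatin name took 72.8% of mP/lP cells, 65.3% of RS, 57.6% of L/Z/eP, 43.7% of D and 39.6% of eL/L/Z cells.

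The split followed the library. At 11 dpp, 32 of 39 D cells were L/Z/eP by chromatin, and at 17 dpp 64 of 84, while none of either library was RS, which allows a share of up to 7.69% and 3.57% (3 counts of the total). At 25 dpp, 39.0% of 1486 D cells were mP/lP, 33.4% L/Z/eP and 11.8% RS. In Cre/+, 52.2% of 1417 were mP/lP, 11.0% L/Z/eP and 30.1% RS. RS names were thus more frequent in the adult library and L/Z/eP names in the juvenile ones. Neighbouring RNA populations shared the second difference. At 25 dpp and in Cre/+, L/Z/eP names took 16.6% and 6.23% of mP/lP cells and 20.3% and 1.66% of RS cells. RS names took 4.07% and 3.54% of mP/lP cells and 61.1% and 67.2% of RS cells. The RNA clusters differed too: RS names made up 15.4% of cluster 9 and 27.0% of cluster 13, and the gap came from Cre/+ (20.04% and 49.9%), while at 25 dpp the clusters were alike (11.7% and 11.8%).

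**Figure D2:**
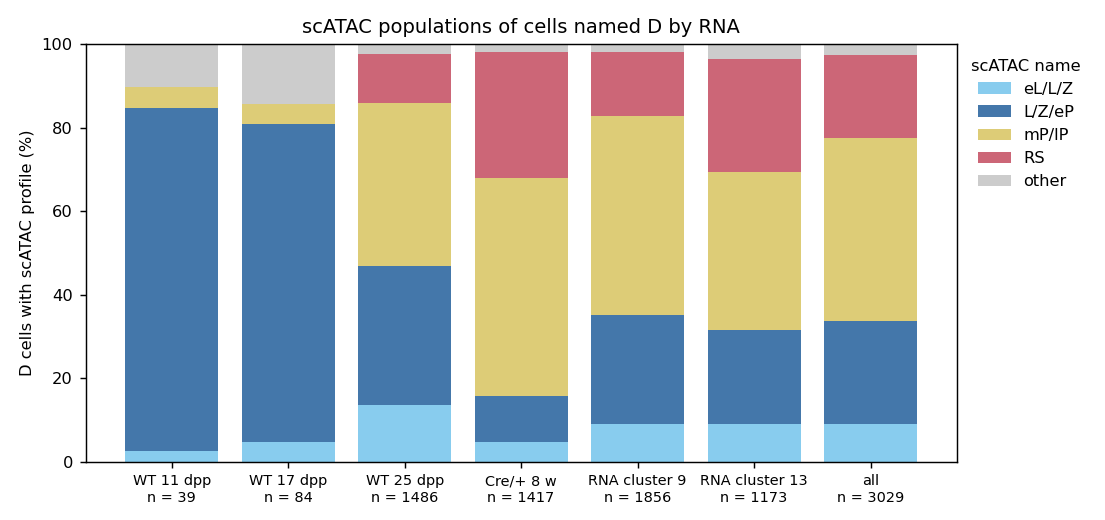
Share of D cells (y axis, percent of D cells with a chromatin profile) by their scATAC-seq name, for each library with D cells, for the 2 RNA clusters and for all 3029 cells. The 11 and 17 dpp bars are mostly L/Z/eP, and RS names take 30.1% of the Cre/+ bar and 11.8% of the 25 dpp bar.

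Quality measures of the D cells moved with these names. TSS enrichment, which sets ATAC coverage at gene starts against coverage farther away, had a median of 16.6 in D cells named L/Z/eP by chromatin, 10.1 in those named mP/lP and 8.08 in those named RS. The nucleosome ratio, computed from fragment lengths, went the other way, with 0.535, 0.657 and 0.751. The order of both measures was the same within 25 dpp (TSS enrichment 15.2, 11.0 and 9.23) and within Cre/+ (19.2, 9.38 and 7.64). Over all D cells TSS enrichment was 10.8, between 12.5 in cells named mP/lP by RNA and 7.89 in RS, and the fraction of reads in promoters was 0.168, between 0.194 and 0.125. Fragments per D cell had a median of 9361, 6764.5 at 25 dpp and 15668 in Cre/+. The part of depth and quality in the chromatin names was not tested.

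Few genes had D as their clear peak. Of 5319 genes at 0.5 or more per 10000 in D, 13, or 0.244%, were at least 1.5 times as high in D as in every other control population. The same rule gave 0 of 5654 genes for eL/L/Z, 5 of 5266 for L/Z/eP, 9 of 5885 for differentiating spermatogonia and 37 of 5525 for preleptotene cells. It gave 145 of 4934 for mP/lP, 283 of 5641 for undifferentiated spermatogonia, 295 of 5499 for ES and 1038 of 5196 for RS. Sertoli cells had 742 of 4889, and the somatic population without a cell type name 661 of 5454. D was the highest population by any margin for 236 genes, 4.44%, with a median lead of 1.08 times, and the next highest was mP/lP for 138 of them. Of the 13 genes, 9 were the Ugt1a genes, which encode UDP-glucuronosyltransferases and lie in 1 overlapping array at chr1:88055411-88220002 (RefSeq, GRCm38.p6).

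The Ugt1a array was the sharpest mark of D. Its 9 genes stood between 1.76 and 2.14 per 10000 in D, between 0.0204 and 0.0311 in mP/lP and between 0.00511 and 0.0115 in RS. Elsewhere among control populations none was above 0.0958, a level reached in ES. Ugt1a1 stood at 0 in L/Z/eP, 0.0204 in mP/lP, 1.76 in D, 0.00511 in RS and 0.0581 in ES, 11.8 times the next population. The 9 genes share their last exons, so 1 transcript can be counted for all of them, their levels are close to equal, and as 1 locus the count of 13 becomes 5. Dnajb3, a chaperone gene inside the array, did not share the pattern, with 0.643 in L/Z/eP, 1.21 in mP/lP, 1.88 in D, 2.99 in RS and 8.73 in ES. Mroh2a, the gene just past the end of the array, stood at 2.43 in mP/lP, 3.07 in D and 2.56 in RS, and its highest level was in D too. With mitochondrial genes left out of the scale, scATAC-seq signal per 1000000 over Ugt1a1 was 10.6, 15.3 and 19.8 in mP/lP, D and RS, and over Ugt1a2 5.88, 11.4 and 14.3. Over both genes RS, where the RNA was near 0, thus had more signal than D. With mitochondrial genes in the total, the median over the 9 genes was low, at 0.930, 1.56 and 2.57. On that scale Ugt1a10 went the other way, with 1.69 in D and 0.980 in RS.

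The 4 other genes were led by less. Kcnq3, a potassium channel gene, stood at 0.521 in L/Z/eP, 0.599 in mP/lP, 1.01 in D, 0.383 in RS and 0.261 in ES. Grk3, a receptor kinase gene, stood at 0.207 in L/Z/eP, 0.310 in mP/lP, 0.546 in D, 0.269 in RS and 0.274 in ES, and Efcab8, an EF-hand protein gene, at 0.551 in L/Z/eP, 0.806 in mP/lP, 1.29 in D, 0.400 in RS and 0.512 in ES. Catsperd, a subunit of the calcium channel of the sperm tail, stood at 1.51 in L/Z/eP, 2.97 in mP/lP, 4.94 in D, 1.88 in RS and 3.20 in ES. In these 4 genes D was 1.53 to 1.59 times the next population, and mP/lP was above RS in each. Catsperd was the last gene inside the rule (1.53 times) and Ovol2, a zinc finger repressor of spermatocytes, the first outside it (1.49 times, 0.291 in mP/lP, 0.504 in D and 0.288 in RS). Gm30159 came next (1.46 times), and the ABC transporter gene Abca17 (1.45 times) stood at 1.27 in L/Z/eP, 2.02 in mP/lP, 3.38 in D, 1.28 in RS and 2.30 in ES, and among the genes farther down, Myo1a, Nnt and Pafah2 were 1.37, 1.35 and 1.33 times their next population.

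Of the genes that differed between mP/lP and RS, nearly all lay between the 2 levels in D. Of 2816 genes that were at least 2-fold higher in RS than in mP/lP, 2813, or 99.9%, had their D level between the 2. The median position was 0.410 of the way on the log2 scale, with quartiles of 0.341 and 0.465. Of 1424 genes at least 2-fold lower in RS, 1363, or 95.7%, were between, at a median of 0.319 of the way. As a further description, chosen after the data were seen, the D column was written as a weighted sum of the other 10 control columns, with weights of 0 or more. The weights were 0.493 for mP/lP, 0.267 for RS, 0.189 for L/Z/eP, 0.0266 for ES and under 0.02 for any other. This sum left 6.50% of D's UMIs unmatched. The same fit left 5.89% of eL/L/Z, 8.46% of L/Z/eP, 14.3% of mP/lP and 24.8% of RS unmatched. Unweighted by level, the weights for D were 0.460, 0.326 and 0.163 for the first 3. Cells of intermediate content and a mix of cells of several stages under 1 name cannot be told apart in a pooled column.

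Some genes stood above this sum. Of 5598 genes with a level of 0.5 or more in D or in the sum, 68 were at least 1.5 times above it and 10 at least 1.5 times below. The 68 were the 9 Ugt1a genes, all 21 Pcdhg genes (gamma protocadherins, cell adhesion proteins, again an array with shared last exons) and 38 others. The weights add up to 0.998, so a gene 1.5 times as high in D as in every other population is above the sum by at least as much through that choice alone. This holds for the Ugt1a genes, Catsperd and Efcab8, whose values here only restate their lead. Catsperd stood at 4.94 against a sum of 2.37, Abca17 at 3.38 against 1.66, and Efcab8 at 1.29 against 0.628. Catsperz, a further CatSper subunit, was 1.79 times its sum, Ggn, a germ cell protein gene, 1.75 times and Capn11, a calpain protease gene of the testis, 1.68 times. Ccna1 was 1.55 times its sum, at a level below 0.5, and Pou5f2 1.16 times. Among those below were Adad2, an RNA-binding protein gene of germ cells, at 1.28 against 2.09, H2afx, the histone phosphorylated in the sex body, at 1.32 against 2.03, and the tubulin genes Tuba3a and Tuba3b, at 0.664 and 0.660 times their sums.

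**Figure D3:**
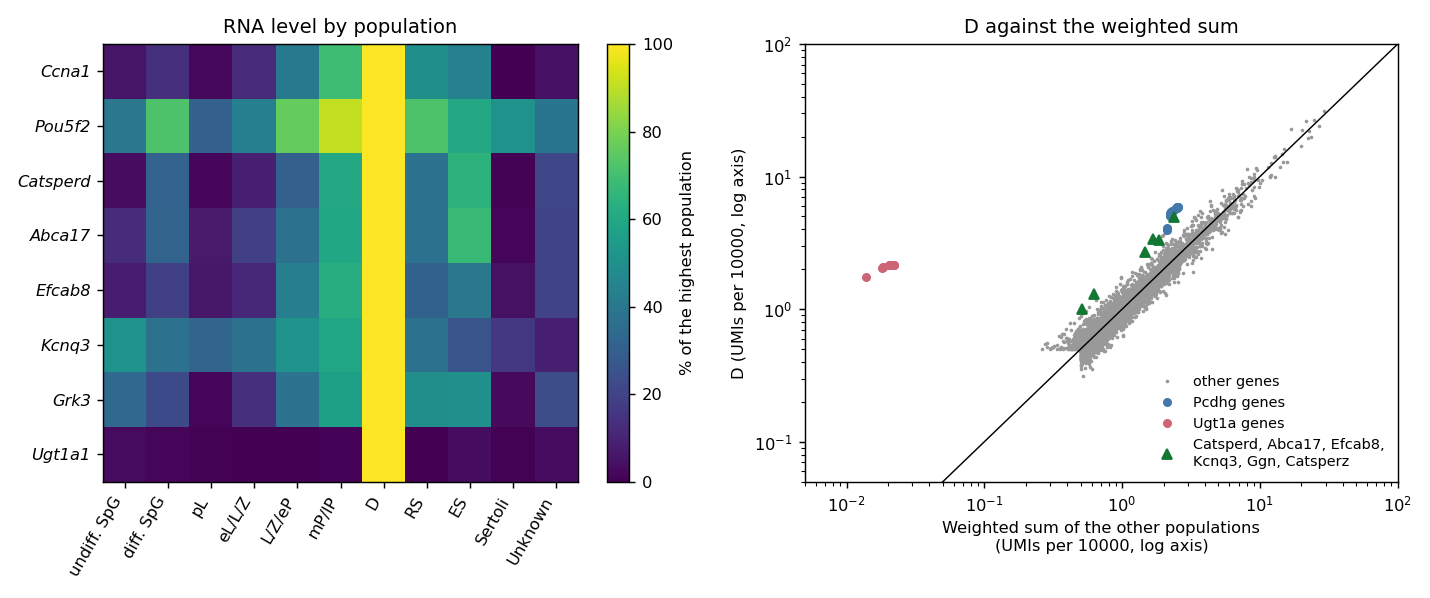
Left, RNA level of the 2 markers and 6 leading genes (rows) in the 11 control populations (columns), as a percent of the gene's highest population, which is D in each row. Right, level in D (y axis, log) against the weighted sum of the other populations (x axis, log), 1 point per gene of 5598, with the line of equality. Ugt1a genes lie far above the line, at 1.76 to 2.14 in D, and 98.6% of the genes are within 1.5 times of it.

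Against mP/lP, far more genes were higher in D than lower. Of 9601 genes with a level of 0.2 or more in either, 736, or 7.67%, were at least 2-fold higher in D and 28, or 0.292%, at least 2-fold lower, and the median over all 9601 was near equal levels, with 4783 of them higher in D by any amount. Of the 736, 716 were higher still in RS, 21 were the Pcdhg genes and 15 were on the X chromosome. The Pcdhg genes stood between 0.199 and 0.367 in mP/lP, between 3.94 and 5.92 in D and between 7.20 and 8.45 in RS. Pcdhga8 had log2 ratios of 4.04 to mP/lP and -0.49 to RS, a level in D far above mP/lP and not far below RS. Besides the Ugt1a and Pcdhg arrays, the largest differences were in AC122551.1, Gm8251, Iqcf3 and Dnah3, with log2 ratios of 1.99, 1.88, 1.87 and 1.86. Iqcf3, an IQ motif protein gene, stood at 0.355 in mP/lP, 1.56 in D and 5.17 in RS. Dnah3, an inner dynein arm heavy chain, stood at 0.373 in mP/lP, 1.62 in D and 5.05 in RS, and Fer1l5, a ferlin, at 0.808 in mP/lP, 3.15 in D and 11.0 in RS. Against RS, 510 of 10595 genes, or 4.81%, were at least 2-fold higher in D and 1736, or 16.4%, lower, with a median log2 ratio of 0.24. The largest deficits were in 1700020G17Rik, Gm43016, Gm48313 and Gm41225, with log2 ratios from -2.31 to -2.17, followed by Gm29825, 1700010J16Rik, Gm20642 and Gm34678, and 1700020G17Rik stood at 0.375 in mP/lP, 1.61 in D and 8.37 in RS. After Ugt1a, the largest excesses over RS were in Ifitm7, at 1.39 in mP/lP, 1.36 in D and 0.263 in RS, Gm16158, 4933400L20Rik, Gm14244 and the leucine-rich repeat gene Lrrc71, at 5.45 in mP/lP, 5.53 in D and 1.53 in RS. Scaling each pair to a median ratio of 1 lowered log2 ratios, before 0.1 was added, by 0.05 against mP/lP and by 0.28 against RS (by less in low genes once 0.1 was added). Against RS, the 510 higher genes then became 192 and the 1736 lower genes became 2509. Levels just above 0.2 rest on few UMIs per cell, and the pooled columns give no error.

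Of the 28 lower genes, 13 carried the name of a piRNA locus. These small RNAs are cut from long transcripts and loaded on PIWI proteins, and the matrix holds 215 entries named as such loci are, by chromosome band or with the prefix pi. They were not split here into loci active in pachytene and in earlier stages. Of 192 loci with a level, 13, or 6.77%, were at least 2-fold lower in D than in mP/lP (0.292% of all genes), 153 were lower by any amount, and the median log2 ratio was -0.39. Against RS, 60 of 191, or 31.4%, were at least 2-fold higher in D (4.81% of all genes), with a median of 0.78. Together the loci took 3.32% of UMIs in L/Z/eP, 5.61% in mP/lP, 3.66% in D and 1.81% in RS, a sum that counts overlapping entries more than once. The locus pi-Strbp.1 was highest in L/Z/eP, at 8.19, with 7.48 in mP/lP, 6.74 in D, 4.02 in RS and 3.30 in ES. In the piRNA and germ granule protein list, 1 of 18 genes was at least 2-fold lower in D than in mP/lP (0.292% of all genes) and none higher (7.67% of all), and 16 were lower by any amount. The 1 was Piwil1, which encodes the PIWI protein of pachytene cells, at 11.4 in mP/lP, 5.60 in D and 2.56 in RS. Tdrd1 and Tdrd5, Tudor proteins of the granule, stood at 5.01, 2.71 and 1.34 and at 2.55, 1.42 and 0.657 in mP/lP, D and RS, with log2 ratios to mP/lP of -0.86 and -0.80. Tdrd6, of the chromatoid body, was at 2.75, 2.87 and 1.90, highest in D. The 8 largest deficits were in Adad2, AC125141.3, Gm21221, Tuba3a, Tuba3b and 3 loci named by band. Adad2 stood at 3.45 in mP/lP, 1.28 in D and 0.450 in RS, Tuba3b, an alpha tubulin gene, at 8.36 in mP/lP, 3.67 in D and 2.63 in RS, and Tesmin at 7.78 in mP/lP, 3.82 in D and 1.96 in RS.

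Transcripts of the spermatid nucleus were higher in D than in mP/lP almost without exception. Of 10 measured spermatid and testis nuclear protein genes, 9 were at least 2-fold higher in D than in mP/lP (7.67% of all genes were), with a median log2 ratio of 1.23. Of 12 measured against RS, 11 were at least 2-fold lower (16.4% of all genes), with a median of -1.30. Prm1 and Prm2, the protamines that replace histones in sperm, stood at 0.135 in L/Z/eP, 1.13 in mP/lP, 4.11 in D, 10.3 in RS and 40.8 in ES and at 0.0890 in L/Z/eP, 0.441 in mP/lP, 1.47 in D, 3.79 in RS and 9.74 in ES. Tnp1 and Tnp2, the transition proteins, stood at 0.508, 1.71 and 4.37 and at 1.38, 4.16 and 11.1 in mP/lP, D and RS, and Tssk6, a spermatid kinase, at 0.167, 0.494 and 0.956. H2al2a, a histone variant, missed 2-fold against mP/lP, with 0.0770, 0.250 and 0.693. The marker list of elongating spermatids, which shares genes with this one, had 8 of 8 members at least 2-fold above mP/lP, and its summed level was 1.32 in L/Z/eP, 5.25 in mP/lP, 17.4 in D and 43.9 in RS. These transcripts also stood in populations that are not near spermatids. The list summed to 15.1 in differentiating spermatogonia and to 10.1 in the somatic population without a cell type name, against 0.868 in undifferentiated spermatogonia, 0.0506 in preleptotene cells and 0.0223 in Sertoli cells. For Prm1 alone, differentiating spermatogonia stood at 3.94, close to D, and the unnamed somatic population at 2.10, above mP/lP. How far RNA of spermatids in the nuclei preparation added to the levels in D was not tested.

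Every acrosome gene of the list except Spata16, Gopc and Pick1 was higher in D than in mP/lP by some amount. Of 20 measured, 7 were at least 2-fold higher in D than in mP/lP (7.67% of all genes were) and 0 lower (0.292% of all), with a median of 0.52. Of 22, 10 were at least 2-fold lower than in RS (16.4% of all genes) and 1 higher (4.81% of all). Acrv1, an acrosomal matrix protein, stood at 0.385 in L/Z/eP, 0.580 in mP/lP, 2.04 in D, 7.19 in RS and 2.56 in ES, Spaca3 at 0.297, 0.932 and 3.16 in mP/lP, D and RS, Izumo1, the sperm protein of egg fusion, at 0.250, 0.725 and 2.72, and Spam1, the hyaluronidase, at 0.147, 0.482 and 1.63. All 4 were higher in D than in mP/lP and higher still in RS. Spata16, a Golgi protein of acrosome formation, ran the other way at 5.19 in L/Z/eP, 9.89 in mP/lP, 7.99 in D, 3.19 in RS and 2.08 in ES, with log2 ratios of -0.30 to mP/lP and 1.30 to RS. Dpy19l2, which anchors the acrosome to the nucleus, and Zpbp2 had their highest control level in D, at 1.18, 1.31 and 0.633 and at 0.655, 0.815 and 0.462. Acr, the protease acrosin, stood at 1.43, 1.84 and 2.85. Zpbp differed least, with 0.994, 1.14 and 1.16.

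Tail genes of D differed widely among themselves. Of 34 genes, 7 were at least 2-fold higher in D than in mP/lP, against 7.67% of all genes, and none lower, with a median of 0.10. Of 35, 8 were lower and 3 higher than in RS, not far from the 16.4% and 4.81% of all genes, with a median of -0.03. Odf1, of the outer dense fibres, stood at 0.148 in L/Z/eP, 0.689 in mP/lP, 2.10 in D, 4.71 in RS and 16.0 in ES, and Akap4, the X-linked main protein of the fibrous sheath, at 0.0921 in L/Z/eP, 0.271 in mP/lP, 0.981 in D, 2.47 in RS and 8.29 in ES. Ropn1, a sheath protein, stood at 0.187, 0.647 and 2.18 in mP/lP, D and RS. The pore subunit genes Catsper1, Catsper3 and Catsper4 stood at 0.103, 0.316 and 1.29, at 0.131, 0.407 and 1.38 and at 0.306, 1.08 and 3.66. Catsper2, a pore subunit too, stood at 4.92, 5.28 and 2.39, with a log2 ratio of 1.11 to RS, and with Catsperd it was highest in D. Some axoneme genes peaked in D. Dnah2, a dynein heavy chain, stood at 4.22 in mP/lP, 4.61 in D and 1.98 in RS, Dnaic2, a dynein intermediate chain, at 0.253, 0.419 and 0.142, and Cfap65 at 5.87, 7.89 and 6.05, all 3 highest in D. In all, 7 of 35 tail genes were highest in D among the germ cell populations, against 4.64% of the 5319 genes at 0.5 or more in D, a base that leaves out lower genes such as Dnaic2. Tekt1 and Spef2 differed least from mP/lP, with log2 ratios of 0.01 and 0.01.

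**Figure D4:**
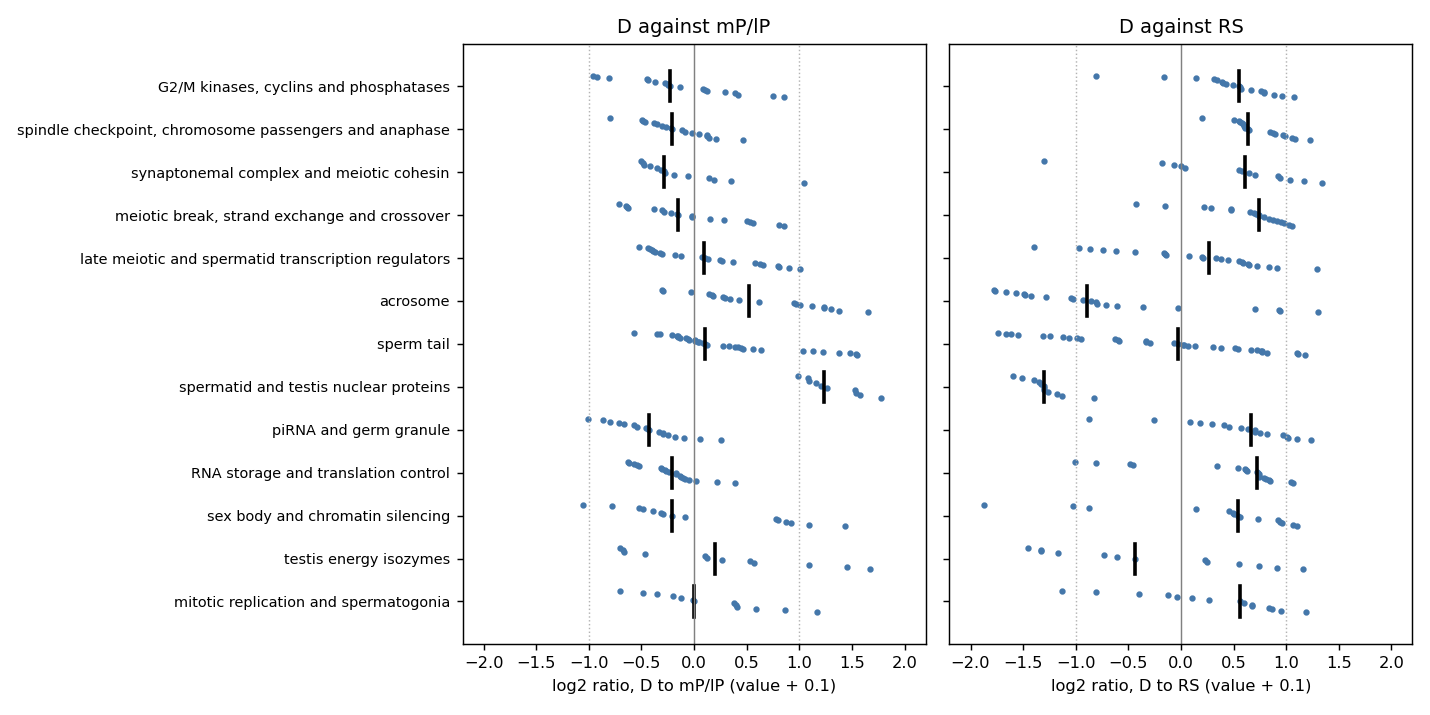
Log2 ratio of D to mP/lP (left) and of D to RS (right), on the value + 0.1 scale, for each measured member (points) of 13 gene lists (rows), with the list median as a black bar and dotted lines at 2-fold. Nuclear protein genes lie at the right on the left panel and at the left on the right panel, with medians of 1.23 and -1.30.

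Few genes of the coming division were 2-fold apart from either neighbour. Of 19 measured G2/M kinase, cyclin and phosphatase genes, none was 2-fold apart from mP/lP in either direction, near the 7.67% higher and 0.292% lower of all genes, with a median log2 ratio of -0.23, and 1, Cks2, was at least 2-fold above RS (4.81% of all genes). Cdk1, the mitotic kinase, stood at 0.649 in L/Z/eP, 0.864 in mP/lP, 0.609 in D, 0.309 in RS and 0.737 in ES, and its partners Ccnb1 and Ccnb2 at 0.260, 0.282 and 0.207 and at 1.70, 1.29 and 0.932 in mP/lP, D and RS. Hspa2, the chaperone that spermatocytes need for active CDK1, stood at 7.43, 3.77 and 2.65, a log2 ratio of -0.96 to mP/lP, and Cks2, a subunit of CDK complexes, at 2.21, 1.12 and 0.482. Ccnb3 was higher in D, with 1.18 in L/Z/eP, 0.237 in mP/lP, 0.509 in D, 0.212 in RS and 0.0967 in ES, below its L/Z/eP level. Cdc25c, the phosphatase that activates CDK1, stood at 0.116, 0.263 and 0.537, highest in RS. Of 19 spindle checkpoint, passenger and anaphase genes, none was 2-fold apart from mP/lP, again near the 7.67% and 0.292% of all genes (median -0.21), and 3 were at least 2-fold above RS, where 4.81% of all genes were: Fbxo43, an inhibitor of the anaphase-promoting complex, at 1.72, 1.46 and 0.571, Incenp at 0.709, 0.779 and 0.324 and Cenpf at 3.92, 5.46 and 2.52. Kif11, a spindle kinesin, was highest in D, with 1.28, 1.42 and 0.875, a log2 ratio to mP/lP of 0.15.

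Synaptonemal complex and recombination transcripts were still present in D. Of 14 synaptonemal complex and cohesin genes, 1 was at least 2-fold higher than in mP/lP (7.67% of all genes) and none lower, with a median of -0.28. Against RS, 3 of 14 were higher and 1 lower, with a median of 0.61, where 4.81% of all genes were higher and 16.4% lower. Sycp1, of the transverse filament, stood at 25.3 in L/Z/eP, 16.6 in mP/lP, 12.95 in D, 8.80 in RS and 5.73 in ES, and Sycp2, of the lateral element, at 20.2 in L/Z/eP, 18.1 in mP/lP, 14.8 in D, 5.79 in RS and 4.26 in ES. Hormad1, a HORMA protein of unsynapsed axes, stood at 3.33, 2.36 and 1.10. The 1 higher gene was Rec8, a meiotic cohesin subunit, at 0.246 in L/Z/eP, 0.138 in mP/lP, 0.390 in D, 1.11 in RS and 0.527 in ES. Of 19 break, strand exchange and crossover genes, none was 2-fold apart from mP/lP (7.67% of all genes were higher and 0.292% lower) and 2, Mlh3 and Brca2, were at least 2-fold above RS (4.81% of all genes). Prdm9, which marks break sites, and Dmc1, the strand exchange protein, stood at 1.22 in L/Z/eP, 0.224 in mP/lP, 0.467 in D, 0.202 in RS and 0.245 in ES and at 1.88 in L/Z/eP, 0.508 in mP/lP, 0.998 in D, 0.456 in RS and 0.366 in ES, so that D was above both neighbours. Mlh3, a crossover protein, stood at 1.68, 1.05 and 0.453 in mP/lP, D and RS and Cntd1 at 3.29, 1.97 and 0.973, with log2 ratios to mP/lP of -0.63 and -0.71. Mki67, a proliferation marker of the mitotic list, was also above both neighbours, with 5.99 in L/Z/eP, 1.39 in mP/lP, 2.61 in D, 1.09 in RS and 0.740 in ES. It does not stand for its list of mitotic replication and spermatogonia genes. That list had a median log2 ratio to mP/lP of 0.001 over 13 genes, and to RS of 0.56 over 15.

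Among 24 transcription regulators of late meiosis and spermatids, 1 was 2-fold higher in D than in mP/lP (7.67% of all genes), with a median of 0.10. This was Sox5, at 0.484 in L/Z/eP, 0.465 in mP/lP, 1.03 in D, 2.87 in RS and 0.807 in ES. Crem, the activator of spermatid genes, stood at 1.40 in L/Z/eP, 1.69 in mP/lP, 2.05 in D, 3.80 in RS and 1.73 in ES, and the regulators Rfx2 and Sox30 at 3.13, 2.75 and 2.09 and at 0.539, 0.582 and 0.946. Mybl1 (A-MYB), the pachytene activator, and Tcfl5 lay between, at 1.51, 1.19 and 0.583 and at 2.64, 1.80 and 1.30, with log2 ratios to mP/lP of -0.33 and -0.53. Zfp541, a chromatin factor of pachytene exit, stood at 2.86, 2.62 and 1.01 and was the 1 gene at least 2-fold above RS (4.81% of all genes). Pou5f2, the Ovol1 and Ovol2 repressors and Gtf2a1l, a testis TFIIA subunit, had their highest level in D. Of 20 RNA storage and translation genes, none was 2-fold apart from mP/lP, where 7.67% of all genes were higher and 0.292% lower. Their median was -0.21 and 17 of 20 were lower by any amount, while 4783 of all 9601 genes were higher by any amount. Ybx2 (MSY2), which stores mRNA in germ cells, stood at 35.3 in mP/lP, 24.2 in D and 15.7 in RS, and Eif4g1 at 2.11, 2.79 and 5.70. Of 12 testis energy isozymes, 3 were at least 2-fold higher than in mP/lP, against 7.67% of all genes: Pgk2 at 0.161 in L/Z/eP, 0.357 in mP/lP, 1.15 in D, 1.98 in RS and 5.51 in ES, Gapdhs at 0.419, 1.55 and 4.44 and Hk1 at 0.503, 1.18 and 3.12. Ldhc, the germ cell lactate dehydrogenase, stood at 11.7, 8.41 and 7.07.

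X-linked genes took a larger share of RNA in D than in mP/lP. A share does not give RNA per cell, and D cells had fewer UMIs (median 3670, against 6969 in mP/lP). The 921 genes placed on X took 1.53% of UMIs in L/Z/eP, 0.555% in mP/lP, 1.03% in D, 1.22% in RS and 1.72% in ES. Without the 10 X-linked genes of highest mean the shares were 0.492%, 0.914% and 1.14% in mP/lP, D and RS. Of 164 X-linked genes with a level, 163 were higher in D than in mP/lP by any amount, with a median log2 ratio of 0.67, against -0.01 for 8914 autosomal genes. At the 2-fold rule, however, X was close to the background, with 15 of 164 genes, 9.15%, against 7.67% of all. The 1 gene lower in D was Ndufa1, of mitochondrial complex I, at 0.825 in mP/lP, 0.630 in D and 0.360 in RS. Against RS, the median X log2 ratio was -0.12, against 0.26 for autosomal genes. None of 217 X-linked genes was at least 2-fold higher (4.81% of all genes). At least 2-fold lower were 35, or 16.1%, near the 16.4% of all genes.

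**Figure D5:**
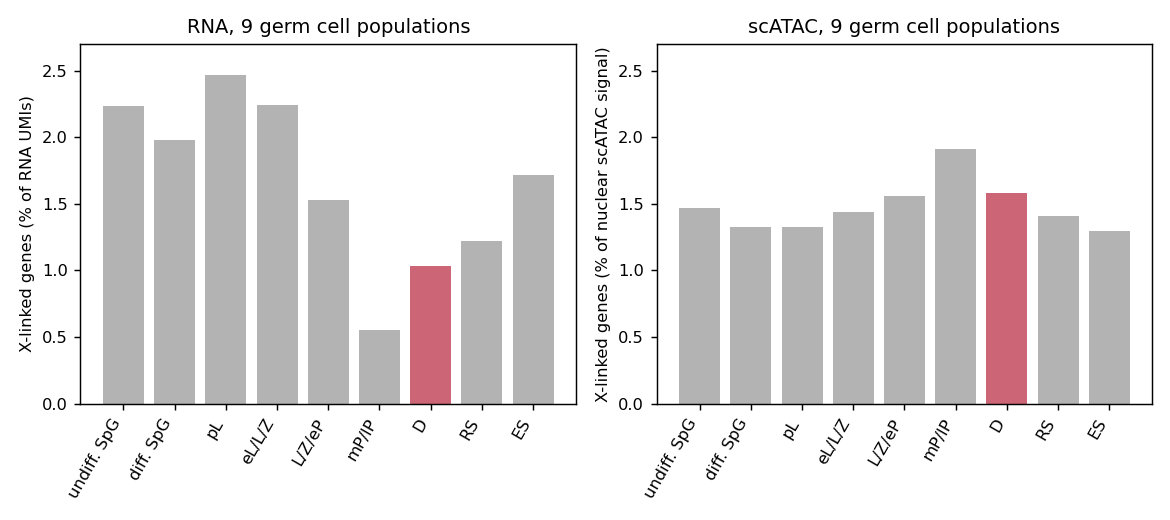
Share of RNA UMIs (left) and of scATAC-seq signal of nuclear genes (right) from X-linked genes (y axes, percent) in the 9 germ cell populations (x axes), with D in red. In RNA, D at 1.03% lies between mP/lP at 0.555% and RS at 1.22%, and in scATAC-seq it lies between them in the other direction.

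X-linked genes were divided by whether L/Z/eP or RS had the higher level. Of 217 with a level in mP/lP, D or RS, 121 were higher in L/Z/eP than in RS, and 99 of these, or 81.8%, were higher in D than in both mP/lP and RS. Of the other 96, 95, or 99.0%, lay between mP/lP and RS in D. Of 9983 autosomal genes with a level, divided the same way, 27.9% of 5865 were above both and 84.9% of the other 4118 lay between. The RS level enters both the division and the comparison, which favours D above RS in genes divided off for a low RS level. Thoc2, of an mRNA export complex, stood at 4.10 in L/Z/eP, 0.941 in mP/lP, 2.02 in D, 1.66 in RS and 2.63 in ES. Huwe1, a ubiquitin ligase, stood at 3.37 in L/Z/eP, 0.881 in mP/lP, 1.77 in D, 1.26 in RS and 1.52 in ES, Pet2 at 5.10 in L/Z/eP, 0.984 in mP/lP, 1.92 in D, 0.929 in RS and 0.350 in ES, and Atrx, a chromatin remodeller, at 2.02 in L/Z/eP, 0.410 in mP/lP, 0.985 in D, 0.556 in RS and 1.17 in ES. Scml2, a germline polycomb protein, Usp26, a deubiquitinase, and Diaph2, a formin, stood at 0.605, 1.11 and 0.761, at 0.457, 0.932 and 0.617 and at 0.662, 1.03 and 0.685 in mP/lP, D and RS. These 7 were above both neighbours and below L/Z/eP. Akap4, given above, and Cstf2, a polyadenylation factor, lay between, with Cstf2 at 0.207 in mP/lP, 0.540 in D and 1.79 in RS. The weighted sum given above, which includes L/Z/eP, came to 1.81 for Thoc2, 0.827 for Atrx and 1.04 for Akap4. D stood at 2.02, 0.985 and 0.981. The part of a mix of stages in the X-linked levels of D was not tested. Autosomal copies of X-linked genes, which take over in meiosis, did not differ in 1 direction. Over 9 copy and parent pairs, the summed copies stood at 7.97, 6.97 and 6.92 in mP/lP, D and RS, and the X-linked parents at 0.714, 1.37 and 2.37. Cstf2 carried the difference of the parents between D and RS: without it, a choice made after its values were seen, the other 8 summed to 0.507, 0.833 and 0.583, higher in D than in RS. Pgk2 stood at 1.15 in D and 0.357 in mP/lP, while its parent Pgk1 was at or under 0.03 in all 3, and Rpl10l and Pdha2 stood at 1.20, 0.677 and 0.393 and at 1.57, 0.993 and 0.934. Of 15 sex body and silencing genes, 2 were at least 2-fold higher in D than in mP/lP and 1 lower, where 7.67% of all genes were higher and 0.292% lower. Chd5, a remodeller of spermatids, and Atrx were the higher, with Chd5 at 0.422 in mP/lP, 1.31 in D and 5.07 in RS, and H2afx the lower, at 2.86 in mP/lP, 1.32 in D and 0.904 in RS. Zfy1 and Zfy2, Y-linked zinc finger genes, stood at 0.116, 0.297 and 0.260 and at 0.220, 0.507 and 1.01.

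Chromatin signal over genes in D also lay between mP/lP and RS. Values are scATAC-seq signal per 1000000 over each gene, and the region counted per gene in this matrix was not settled here. The study's methods define promoter accessibility as coverage around the start of transcription for tracks on another scale, and do not tie that to these values. Mitochondrial genes took 60.3% of the signal in mP/lP, 48.6% in D and 40.2% in RS, so the choice of scale moves every nuclear gene. With them in the total, 1660 of 13239 genes, or 12.5%, were at least 1.5-fold higher in D than in mP/lP and 0 lower, with a median log2 ratio of 0.35, and 9 of 15078, or 0.0597%, were higher and 1873, or 12.4%, lower than in RS. Without them, 950 of 18183, or 5.22%, were higher and 159, or 0.874%, lower than in mP/lP, with a median of 0.02. Against RS, 251 of 19430, or 1.29%, were higher and 1991, or 10.2%, lower, with a median of 0.01. The values that follow use the scale without mitochondrial genes. Of 2920 genes at least 1.5-fold higher in RS than in mP/lP, 93.6% lay between in D, at a median of 0.387 of the way, and of 637 lower genes 95.3%, at 0.473.

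Genes with more RNA in D than in mP/lP had more chromatin signal too. Of the 736 genes at least 2-fold higher in RNA, 582 had scATAC-seq signal, 501 of these were higher in D than in mP/lP by any amount (9771 of all 18183 genes were), and 189 by 1.5-fold or more (5.22% of all genes), with a median log2 ratio of 0.39. Against RS the same genes were lower, with a median of -0.73. Of the 28 genes at least 2-fold lower in RNA, 26 had signal and 3 were higher in D, with a median of -0.25. The 236 genes with their RNA peak in D had a median log2 ratio of 0.06 to mP/lP, near the 0.02 of all genes, and their median to RS was within 0.01 of equal. Over Ccna1 the signal was 71.9, 61.5 and 60.3 in mP/lP, D and RS, over Pou5f2 30.5, 39.8 and 43.9, over Prm1 5.93, 7.38 and 13.2 and over Acrv1 10.2, 22.6 and 54.4. Over Piwil1 it was 6.52, 8.88 and 9.50, and over Sycp1 91.8, 86.5 and 83.9. X-linked genes ran opposite to their RNA: they took 1.91% of nuclear signal in mP/lP, 1.58% in D and 1.41% in RS, and 70 of 634 were higher in D than in mP/lP, with a median log2 ratio of -0.29. As the 2 assays come from the same nuclei and the D cells were chosen by RNA, RNA and chromatin share cells and libraries.

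Summed markers of other cell types were lower in D than in the control population where each sum was highest, but higher than in mP/lP. The 9 Sertoli cell markers summed to 5.56 in D, 3.02 in mP/lP, 6.91 in L/Z/eP, 4.49 in RS and 81.6 in Sertoli cells. The 5 measured Sertoli markers were all higher in D than in mP/lP (median log2 ratio 0.59) and than in RS (0.54). Of all genes, 4783 of 9601 and 6286 of 10595 were. Leydig cell markers summed to 0.342 in mP/lP, 0.778 in D and 0.830 in RS. Peritubular and endothelial markers summed to 0.177, 0.286 and 0.310, and macrophage and blood markers to 0.0875, 0.155 and 0.248. Of the defining markers, the blood genes Hbb-bs and Hba-a2 were at or near 0 in D, Amh of Sertoli cells stood at 0.0142, and Clu made up 3.20 of the Sertoli sum. The part of these cells in the levels of D was not tested. Over all genes, the D column's correlation of log2 levels was 0.944 with mP/lP, 0.908 with L/Z/eP and 0.856 with RS in RNA (14320 genes), and 0.982, 0.966 and 0.965 in scATAC-seq (23429 genes). These are correlations across genes, which are not independent replicates.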

How the data were processed

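Nuclei of 5 testis libraries were profiled for RNA and accessible chromatin with the BD Rhapsody system. Per the labels and the study's methods, the authors aligned RNA with STAR 2.7.10b and ATAC fragments with BWA 0.7.12 to mm10, shifted the ATAC ends with bedtools 2.27.1, collapsed reads of 1 UMI and position, filtered cells, removed doublets and clustered with Seurat 5.2.1 and ArchR 1.0.3. The gene matrices were deposited as the natural log of 1 + the mean per 10000 over the cells of a population. Here exp(value) - 1 was taken, and scATAC-seq values were rescaled to 1000000. Per-cell UMI, gene and fragment counts, the percent of mitochondrial UMIs, the TSS enrichment and nucleosome ratio and the fraction of reads in promoters were used as the authors deposited them. In all, 14 columns were not used.

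Fold changes are ratios after adding 0.1 (RNA) or 1 (scATAC-seq). A gene had a level if it reached 0.2 per 10000 (RNA) or 10 per 1000000 (scATAC-seq) in either population, and was counted as higher or lower from 2-fold (RNA) or 1.5-fold (scATAC-seq). No test was run, since each condition was 1 library and gene values were pooled. Genes were named by rule: both markers, the 15 genes with the largest lead of D, the 8 largest folds in each direction, the list members 2-fold apart or least apart, the 5 genes most like each marker and the 8 X-linked genes highest in D. Not every gene of this rule is printed, those named only by a band among them. Other list members, and Abca17, Myo1a, Nnt and Pafah2 below the 15, were named after their values were seen. The members and the lists were chosen with earlier results of these data known. The weighted sum was fitted by non-negative least squares, with each gene divided by the square root of its mean. Analyses used Python 3.11.15, pandas 2.3.3, numpy 2.4.6, scipy 1.17.1 and matplotlib 3.10.9, and the counting scripts were tested on simulated data. Alternatives covered the pseudocount, the minimum level, the scale, cell filters, single libraries, single clusters and shared barcodes.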

Additional observations from a re-analysis of the deposited data

How the results depend on the processing

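No paired analysis was possible because each condition has 1 library per assay and the gene values are pooled. Of 181 alternatives, 118 kept their value within its error or 1.5 times its count, and 62 moved. The summed X-linked parents, 0.579 times in D what they were in RS, were 1.43 times without Cstf2, which reversed the direction. 2 values near 0 changed sign, the median of the mitotic list against mP/lP, at -0.05 at a median ratio of 1, and the scATAC-seq median of the genes led by D against RS, from -0.04 to 0.02 without mitochondrial genes. Those without Cstf2, on the Ugt1a genes as 1 locus, on shared barcodes, on single RNA clusters, on the 236 genes highest in D and on X-linked genes with a level in L/Z/eP were chosen after seeing the data. The cause of the shifts was not tested. Gene values have no replicate error, and counts past a fold moved with the value added before the ratio.

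The share of D cells became 0.601% at 11 dpp and 17.5% in Cre/+ among cells with under 2% mitochondrial UMIs, 12.3% and 0% at 25 dpp and in Nfya-CKO among cells with at least 1000 genes, and 1.62% and 0.80% at 11 dpp and in Nfya-CKO among germ cells. Without shared barcodes it was 3.40% for 17 dpp, 20.3% for Cre/+ and 0.299% for Nfya-CKO. The UMI ratio of D to mP/lP was 0.224 in Cre/+ alone.

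By chromatin name, mP/lP took 41.6% of D cells with at least 3000 fragments, 39.0% at 25 dpp, 52.2% in Cre/+, 41.8% without shared barcodes, 47.5% in cluster 9 and 37.8% in cluster 13. L/Z/eP took 30.2% at a TSS enrichment of at least 8, 33.4% at 25 dpp, 11.0% in Cre/+, 28.8% without shared barcodes and 22.6% in cluster 13. RS took 12.9%, 11.8%, 30.1%, 15.7% and 27.0% in the same 5 settings and 15.4% in cluster 9.

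Adding 0.02 in place of 0.1, 1131 genes were higher and 44 lower than in mP/lP and 1066 higher than in RS. Adding 0.5, the counts were 92 and 12 against mP/lP and 129 and 497 against RS. At a minimum of 1 per 10000, 145 were higher than in mP/lP and 772 lower than in RS. At a median ratio of 1, 192 were higher and 2509 lower than in RS. In scATAC-seq without mitochondrial genes, 950 were higher and 159 lower than in mP/lP and 251 higher than in RS. With mitochondrial genes in the total, 1660 were higher than in mP/lP, and 9 were higher and 1873 lower than in RS. On that scale, 608 were higher than in mP/lP and 1 than in RS with 5 added. At a minimum of 20 per 1000000, these became 559 and 2, with 876 lower than in RS. The scATAC-seq median of the genes led by D to mP/lP, 0.78 over 4 genes with mitochondrial genes in the total, was 0.56 over 6 without them. With them, it was 0.40 over the 236 genes, against 0.35 over all genes. Counted as loci, 5 were led by D.

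The X-linked share in D was 0.914% without the 10 highest genes and 0.455% from genes of at least 0.5 in L/Z/eP. The other list medians kept their sign, and 67 of 78 stayed within the spread of the list. With 0.5 added, medians to RS became 0.32 (G2/M), 0.46 (spindle), 0.36 (recombination), 0.53 (RNA storage) and -1.01 (spermatid nuclear), and that of the last to mP/lP 0.65. At a median ratio of 1, those to RS were 0.31 (G2/M), 0.39 (spindle), 0.45 (RNA storage) and -1.58 (spermatid nuclear), the last -1.41 with 0.02 added. GTTGCC was in 1 of 11 promoters of the genes led by D and in 0 of 8, 0%, of those led 2-fold, all of them Ugt1a genes.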
